A study of Homo sapiens with 6 samples.

Results

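Genes that move zinc across membranes, the zinc-sensing factor MTF1 and the metallothionein MT2A were examined in the mRNA of MM1.S cells treated with inhibitors of the disulfide isomerase PDIA1. The set was given by name as 10 genes: the SLC39 importers SLC39A6, SLC39A7, SLC39A8, SLC39A10 and SLC39A14, the SLC30 transporters SLC30A1, SLC30A5 and SLC30A7, and MTF1 and MT2A. Of these, 9 had a row among the 11048 gene symbols of the expression table, and SLC39A7 was not analysed here. The cells, MM1.S, are an established line from a human plasma cell cancer, and all groups shared the same medium with 10% serum. They received the DMSO vehicle, 3 µM CCF642 or 3 µM CCF642-34 for 6 h, and each of the 3 groups had 2 libraries. CCF642 is a PDIA1 inhibitor and CCF642-34 is its analogue. Nothing in the sources states that the libraries of a group came from separate cultures, so the spread between them may be technical. The p values rest on that spread, which limma largely shares over genes. All values come from a single cell line at a single dose and time.

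Zinc enters the cytosol from outside the cell or from organelles through the SLC39 (ZIP) family. It leaves the cytosol through the SLC30 (ZnT) family, either to the outside or into the secretory pathway. When cytosolic zinc rises, the zinc finger factor MTF1 binds metal response elements (MREs) and drives transcription of the metallothioneins, small cysteine-rich proteins that hold zinc and copper, and of the plasma membrane exporter SLC30A1. Plasma cells fold large amounts of disulfide-bonded antibody in the secretory pathway, where SLC30A5 and SLC30A7 supply zinc to enzymes.

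The upstream sequences of the genes in this circuit are shown because MT2A, MT1X and SLC30A1 are known targets of MTF1, so their MREs can be set beside their expression. They are RefSeq sequences on GRCh38.p14, written 5′ to 3′ along the gene, and capitals mark the MRE core, searched as TGCACNC or TGCGCNC on both strands. The first pair comes from MT2A on chromosome 16, plus strand, chr16:56608486-56608512 and chr16:56608520-56608546, each an MRE core with 10 bases on either side. MT1X, the other metallothionein of the table, follows with chr16:56682220-56682423, plus strand, and SLC30A1 with chr1:211579162-211579411, minus strand.
MT2A, 88 bases before the start: agcgcggggcGTGTGCAggcagcgccc
MT2A, 54 bases before the start: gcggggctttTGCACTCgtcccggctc
MT1X: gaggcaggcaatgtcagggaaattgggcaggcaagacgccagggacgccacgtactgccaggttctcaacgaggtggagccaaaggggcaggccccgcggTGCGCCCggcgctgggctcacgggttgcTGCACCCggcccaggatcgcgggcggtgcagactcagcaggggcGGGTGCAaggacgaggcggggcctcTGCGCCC
SLC30A1: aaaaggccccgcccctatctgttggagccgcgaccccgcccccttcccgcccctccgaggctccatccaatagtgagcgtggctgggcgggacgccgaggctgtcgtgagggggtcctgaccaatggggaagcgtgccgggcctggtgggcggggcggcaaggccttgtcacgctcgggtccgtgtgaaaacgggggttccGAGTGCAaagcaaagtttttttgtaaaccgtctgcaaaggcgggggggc

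In the 250 bases before its RefSeq start, MT2A held 7 MRE cores, at 246, 168, 153, 139, 88, 54 and 8 bases before the start, those at 168 and 88 on the other strand. MT1X held 4, at 150, 122, 78 and 53 bases, the match at 78 on the other strand. SLC30A1 held 1, on the other strand, 49 bases before the start. Among 35097 promoter windows of the same length, 24.8% held at least 1 MRE core, 6.48% held at least 2 and 0.368% held at least 4, so the single match of SLC30A1 is common and the numbers in both metallothioneins are rare. The GENCODE start of SLC30A1 lies 419 bases downstream of the RefSeq start, and the sequence between them was not searched. GENCODE also places starts of MT2A and MT1X upstream of their RefSeq starts, by 385 and 46 bases, so by that annotation the MT2A stretches lie in its first exon. A match is a description of the letters and not of binding.

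**Figure D1:**
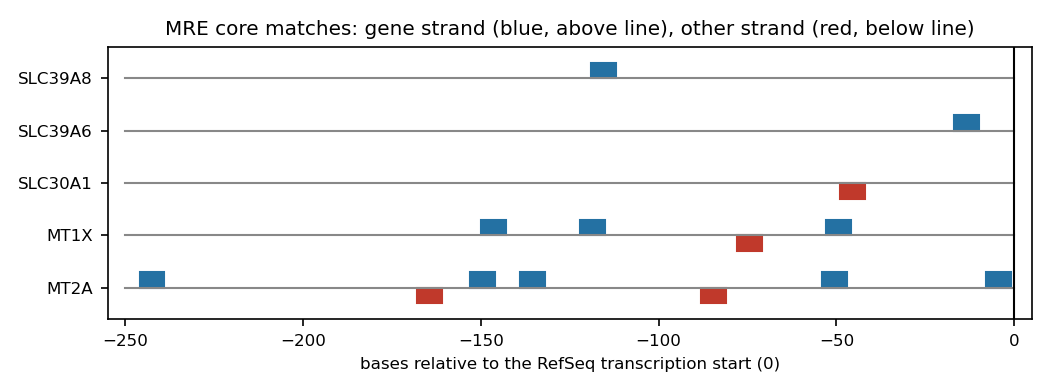
Positions of MRE core matches in the 250 bases before the RefSeq start of the genes that held any (x axis, bases relative to the start at 0). Boxes above the line are matches on the gene's strand and boxes below it on the other strand. MT2A holds 7 matches and MT1X 4, while SLC30A1, SLC39A6 and SLC39A8 hold 1 each.

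Of the 9 members, 8 had an entry among the promoters and SLC39A14 had none. SLC39A6 held 1 MRE core, 17 bases before its start, and SLC39A8 held 1 at 119 bases before the most upstream of its 3 RefSeq starts. SLC39A10, SLC30A5, SLC30A7 and MTF1 held 0. GENCODE starts SLC39A10 at chr2:195575977 and SLC39A8 at chr4:102431258, upstream of all their windows, and the sequence before those starts was not searched. The only heat shock element (GAANNTTC or TTCNNGAA) stood in SLC39A10, 220 bases before the more upstream of its 2 RefSeq starts. Of all windows, 11.6% held that motif. The ER stress element ERSE (0.0741% of windows) and the C/EBP-ATF response element TGATGNAA (3.15% of windows) had 0 matches in the members and in MT1X.

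The 6 libraries held between 20567313 and 28459677 reads, recovered from the deposited values per gene, which are reads scaled to a common library total (CPM). Values were scaled by TMM factors between 0.957 and 1.05, and fold changes are on the log2(CPM + 1) scale, where changes of low genes come out too small. Because CPM is relative, a change in cell number or in total mRNA per cell does not show in these values. A gene's CPM can also change without a change in its amount per cell. Of the plasma cell markers, 10 of 11 symbols were listed, and the other, IGJ, is an older symbol of the listed JCHAIN. Their summed CPM was at least 9904 with DMSO, 7020 to 7054 with CCF642 and 7866 to 7911 with CCF642-34. The joining chain of antibodies JCHAIN, the largest part of the sum, had means of 4319, 1833 and 2348 CPM in that order of groups, and the surface gene SDC1 had 860.2, 245.3 and 371.3 CPM. The markers did not move together, since the factor IRF4 had 669.5, 1137 and 1356 CPM, SLAMF7 had 674.7, 793.7 and 784.7 CPM and XBP1 had 1363, 1390 and 1313 CPM. Markers of cells that a myeloma line should lack were near the lower limit of the table: 1 of 3 T cell, 0 of 4 myeloid, 1 of 2 red cell and 1 of 3 epithelial markers were listed, with summed CPM of at most 4.86. Of 3 fibroblast markers only COL1A1 was listed, at 1.087 and 1.495 CPM with DMSO, 9.00 and 10.5 CPM with CCF642 and 2.74 and 3.53 CPM with CCF642-34, with the same order of groups as SLC30A1. Its part in any result was not tested.

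Per kilobase of the longest coding GENCODE transcript, SLC39A8 had the highest level of the members in DMSO cells, 50.1 ± 1.28 CPM per kb (SD, n = 2). SLC39A6 followed with 29.3 ± 1.58, then SLC30A1 with 24.2 ± 0.120, SLC39A14 with 22.1 ± 0.173 and SLC30A5 with 20.3 ± 0.172 CPM per kb. MTF1 (5.73 ± 0.194 CPM per kb) and SLC30A7 (5.55 ± 0.0787 CPM per kb) did not differ beyond their spread, and SLC39A10 stood at 4.63 ± 0.458 CPM per kb. MT2A was the lowest, at 0.980 ± 0.212 CPM per kb, and MT1X reached 3.02 ± 0.271 CPM per kb. With CCF642 the order at the top changed, SLC30A1 at 47.3 ± 1.61 and SLC39A8 at 33.9 ± 1.40 CPM per kb. SLC39A8 shares 3.04% of its exonic bases with the noncoding gene AC098487.1 on the same strand and SLC30A5 shares 9.2% with the antisense gene AC010273.1. Whether the counting used strand is not given in the sources used here, so reads in these stretches cannot be assigned.

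With CCF642, the plasma membrane exporter SLC30A1 rose about 2-fold, the Golgi transporter SLC30A7 rose 1.85-fold, and the plasma membrane importer SLC39A10 fell by 0.94 on the log2 scale. Of the 9 members, 5 rose (SLC30A1, SLC30A5, SLC30A7, SLC39A14 and MTF1), 3 fell (SLC39A6, SLC39A8 and SLC39A10) and MT2A did not pass the test (limma, Benjamini-Hochberg adjusted p under 0.05). Among all 11048 genes 63.1% passed it, 31.8% higher and 31.3% lower, so the 8 of 9 have to be read against that background. The median log2 fold change was 0.29 over the members and -0.01 over all genes. The members' median is the value of MT2A itself, a gene with few reads and no call. SLC30A1 alone changed at least 2-fold with an unadjusted p under 0.05, a criterion that 6.49% of all genes met, 4.5% as higher and 1.99% as lower. Scaled by library size alone, SLC39A10 met it in place of SLC30A1, with log2 fold changes of -1.07 and 0.96.

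With CCF642-34 the same members passed the test in the same directions, 5 higher and 3 lower, against 57.6% of all genes, 29.7% higher and 27.9% lower. The members' median log2 fold change was 0.29 and that of all genes 0.01. SLC39A10 alone changed at least 2-fold, downwards, beside 3.87% of all genes, 1.29% downwards and 2.59% upwards. The comparisons with DMSO share the DMSO libraries, so a like direction in both is not independent.

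The importers differed among themselves. SLC39A10, which brings zinc in across the plasma membrane, had 26.92 and 23.41 CPM with DMSO, 10.99 and 11.95 CPM with CCF642 and 8.855 and 12.2 CPM with CCF642-34. The libraries of each compound lay below both DMSO libraries, and those of the compounds overlapped. It fell by 0.94 on the log2 scale with CCF642 (SE 0.12, adjusted p = 2.802e-09, limma) and by 1.11 with CCF642-34 (SE 0.12, adjusted p = 4.687e-11, limma), at the 0.833 percentile of all genes. The 2-fold size depended on single libraries and on the pseudocount: with CCF642-34 the fall was 0.90 without its replicate 1 and 0.94 with a pseudocount of 4, and with CCF642 it was 1.04 without DMSO replicate 2 and 1.0 without CCF642 replicate 2.

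SLC39A6, a partner of SLC39A10 at the plasma membrane, had 107.9 and 99.99 CPM with DMSO, 69.77 and 71.43 CPM with CCF642 and 77.9 and 77.34 CPM with CCF642-34. All 4 compound libraries lay below the DMSO libraries, and those with CCF642 were the lowest. The fall was 0.42 on the log2 scale with CCF642 (SE 0.058, adjusted p = 1.843e-08, limma), and with CCF642-34 the log2 fold change was -0.33 (adjusted p = 3.852e-06, limma).

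SLC39A8, which also carries manganese and cadmium, had 205.6 and 198.3 CPM with DMSO, 132.5 and 140.5 CPM with CCF642 and 170.1 and 174.6 CPM with CCF642-34. The groups did not overlap, and the CCF642-34 libraries lay between the others. On the log2 scale the change was -0.43 with CCF642 (SE 0.048, adjusted p = 7.369e-11, limma) and -0.14 with CCF642-34 (SE 0.048, adjusted p = 0.0119, limma). The smaller change lost its call without DMSO replicate 1 (adjusted p = 0.153) and without CCF642-34 replicate 1 (adjusted p = 0.0854), both with limma.

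SLC39A14, which carries iron and manganese besides zinc, moved the other way. It had 103.2 and 102 CPM with DMSO, 112.7 and 114.2 CPM with CCF642 and 112.5 and 113.4 CPM with CCF642-34. Every compound library lay above the DMSO libraries, by a small amount, and the compounds overlapped. This was a log2 fold change of 0.28 with CCF642 (SE 0.052, adjusted p = 9.307e-06, limma) and 0.23 with CCF642-34 (adjusted p = 0.0002085, limma). The size depended on the scaling: with library size alone it was 0.14 with each compound, still called (adjusted p = 0.0139 and 0.0202, limma).

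**Figure D2:**
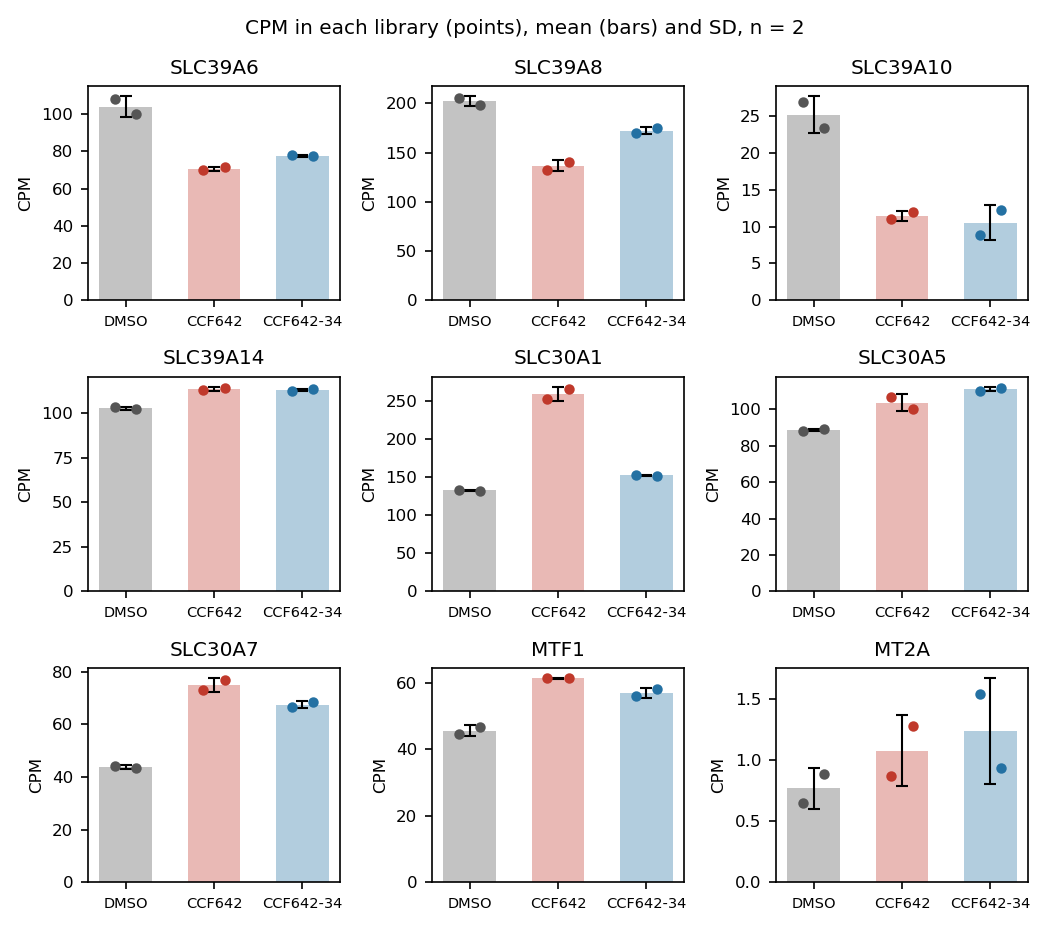
CPM of the 9 members (y axis, linear from 0) in each library (points), with group means (bars) and SDs, 2 libraries per group. SLC30A1 stands at 252.6 and 265.1 CPM with CCF642 and at 133 and 132.1 CPM with DMSO, and the SLC39A10 libraries of both compounds lie between 8.855 and 12.2 CPM.

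The SLC30 members all rose with both compounds. SLC30A1, which removes zinc from the cell, had 133 and 132.1 CPM with DMSO, 252.6 and 265.1 CPM with CCF642 and 152.5 and 151.6 CPM with CCF642-34. The CCF642 libraries stood far above the rest, and the CCF642-34 libraries lay just above those with DMSO. The log2 fold change with CCF642 was 1.09 (95% interval 1.0 to 1.19, adjusted p = 1.622e-25, limma), or 2.13-fold, at the 96.4 percentile of all genes. With CCF642-34 it was 0.29 (SE 0.047, adjusted p = 8.55e-07, limma), or 1.22-fold. The 2-fold size with CCF642 depended on the scaling: the ratio of the mean deposited CPM was 1.95, and scaled by library size alone the log2 fold change was 0.96.

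SLC30A7, which loads zinc into the Golgi, had 44.24 and 43.36 CPM with DMSO, 72.88 and 76.7 CPM with CCF642 and 66.66 and 68.35 CPM with CCF642-34. The groups did not overlap, and both compounds were well above DMSO. Its log2 fold change was 0.89 with CCF642 (SE 0.063, adjusted p = 5.262e-17, limma) and 0.70 with CCF642-34 (adjusted p = 2.277e-13, limma), 1.85-fold and 1.63-fold.

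SLC30A5, which works in the early secretory pathway in a complex with SLC30A6, had 88.04 and 89.1 CPM with DMSO, 106.9 and 100.2 CPM with CCF642 and 110.1 and 111.7 CPM with CCF642-34. All compound libraries lay above DMSO, and those with CCF642-34 were the highest. It rose by 0.35 on the log2 scale with CCF642 (SE 0.054, adjusted p = 1.572e-07, limma) and 0.41 with CCF642-34 (adjusted p = 7.624e-09, limma).

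MTF1, the factor that responds to zinc, had 44.58 and 46.77 CPM with DMSO, 61.41 and 61.34 CPM with CCF642 and 55.97 and 58.1 CPM with CCF642-34. The groups did not overlap. MTF1 rose by 0.55 on the log2 scale with CCF642 (SE 0.066, adjusted p = 5.354e-10, limma), or 1.47-fold, and 0.40 with CCF642-34 (adjusted p = 9.148e-07, limma).

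MT2A, a target of MTF1, was close to the lower limit of the table, with 15 and 19 reads with DMSO, 18 and 29 with CCF642 and 44 and 26 with CCF642-34. These are 0.6525 and 0.8877 CPM, 0.8752 and 1.284 CPM, and 1.546 and 0.9353 CPM. The lower CCF642 library lay between those of DMSO, and the lower CCF642-34 library just above them. Every gene of the table reached 1.5 CPM in at least 1 library, and MT2A did so only in CCF642-34 replicate 1, so its presence rests on that library. The log2 fold change was 0.29 with CCF642 (95% interval -0.18 to 0.76, adjusted p = 0.285, limma) and 0.37 with CCF642-34 (95% interval -0.10 to 0.84, adjusted p = 0.178, limma). No change was detectable at this depth, and over the alternatives the adjusted p ranged from 0.17 to 0.683 with CCF642 and from 0.0979 to 0.66 with CCF642-34. On the reads themselves edgeR gave 0.63 and 0.78, larger than the values on the log2(CPM + 1) scale, and neither was called (adjusted p = 0.241 and 0.123, edgeR). As MT2A is listed only through CCF642-34 replicate 1, its change with CCF642-34 is not independent of that filter. Without that library the log2 fold change was 0.17 with limma.

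Of the 11 metallothionein symbols only MT2A and MT1X were listed, and the others were not analysed here. MT1X is not a member but bears on MT2A because both are MTF1 targets. It had 35 and 37 reads with DMSO, 52 and 73 with CCF642 and 88 and 74 with CCF642-34, or 1.522 and 1.729 CPM, 2.528 and 3.231 CPM, and 3.092 and 2.662 CPM. All compound libraries lay above those with DMSO. MT1X rose by 0.65 on the log2 scale with CCF642 (SE 0.19, adjusted p = 0.00337, limma) and 0.62 with CCF642-34 (SE 0.19, adjusted p = 0.005705, limma). The calls were lost without CCF642 replicate 2 (adjusted p = 0.0513) and without CCF642-34 replicate 1 (adjusted p = 0.0674), both with limma. Metallothionein genes are similar to each other in sequence, and MT1X shares 18.1% of its exonic bases with AC026461.1, so the assignment of these few reads is uncertain.

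**Figure D3:**
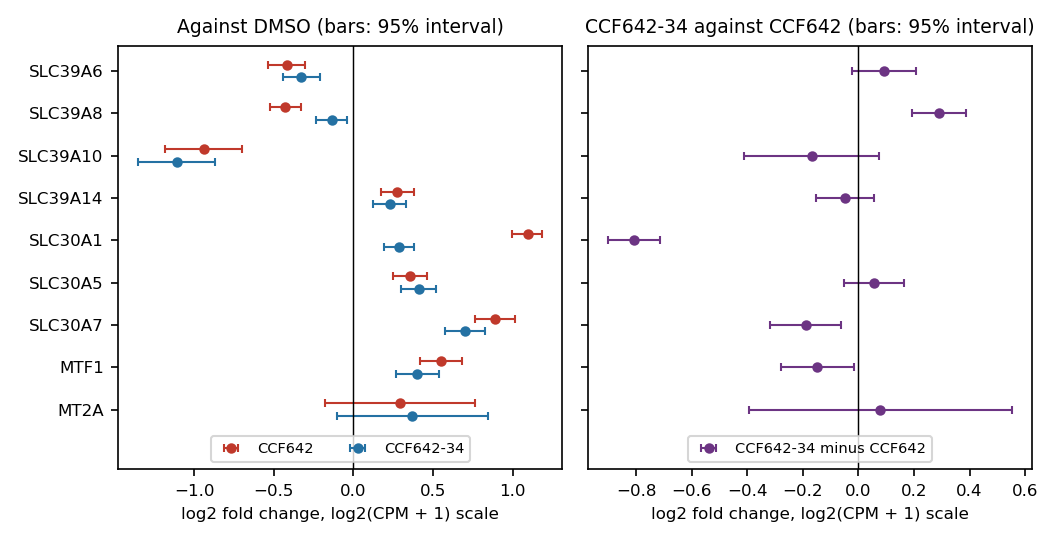
Log2 fold changes of the 9 members (x axis, log2(CPM + 1) scale, bars 95% intervals) for each compound against DMSO on the left and for CCF642-34 against CCF642 on the right. SLC30A1 lies at 1.09 with CCF642 and 0.29 with CCF642-34 and has the largest difference between the compounds, -0.81, while the intervals of MT2A include 0 in all 3 comparisons.

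Compared directly at the same dose and time, the compounds differed most in SLC30A1. Over the 9 members, 1 was higher with CCF642-34 than with CCF642 (SLC39A8), 2 were lower (SLC30A1 and SLC30A7) and 6 did not pass the test, against 33.4% of all genes (15.9% higher, 17.4% lower). The median log2 difference was -0.05 over the members and 0.01 over all genes. Of the members 0 differed 2-fold, against 0.308% of all genes (0.00905% higher and 0.299% lower), and an unadjusted p under 0.05 was given by limma for 4 members, beside 4668 of all 11048 genes.

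SLC30A1 was 1.75-fold lower with CCF642-34 than with CCF642, a log2 difference of -0.81 (95% interval -0.90 to -0.71, adjusted p = 2.64e-19, limma), at the 0.769 percentile of all genes. Its call was kept in every alternative run, with adjusted p up to 0.0232. SLC39A8 was higher with CCF642-34 by 0.29 (95% interval 0.19 to 0.39, adjusted p = 3.871e-06, limma). SLC30A7 was lower, with a log2 difference of -0.19 (95% interval -0.32 to -0.06, adjusted p = 0.0177, limma). This difference was lost without CCF642 replicate 2 (adjusted p = 0.124), without CCF642-34 replicate 1 (0.111) or without CCF642-34 replicate 2 (0.061), all with limma.

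The other members gave no call between the compounds, and their intervals bound the differences that these libraries could have missed. The log2 difference was 0.09 for SLC39A6 (95% interval -0.02 to 0.21), -0.05 for SLC39A14 (-0.15 to 0.05) and 0.06 for SLC30A5 (-0.05 to 0.16). It was -0.17 for SLC39A10 (-0.41 to 0.07) and 0.08 for MT2A (-0.39 to 0.55), which leaves room for larger differences. For MTF1 it was -0.15 (-0.28 to -0.02), with an adjusted p of 0.0777 by limma, and the CCF642-34 libraries lay below those with CCF642.

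The other genes of each family were counted in the same fit. In the SLC39 family 10 of 14 genes were listed, of which 2 rose, 6 fell and 2 did not pass the test with CCF642 (median log2 fold change -0.27), and 2 rose, 4 fell and 4 did not with CCF642-34 (median -0.11). The list includes the 4 SLC39 members. Among all genes 31.8% rose and 31.3% fell with CCF642, and 29.7% rose and 27.9% fell with CCF642-34. SLC39A13, which releases zinc from vesicles of the secretory pathway, rose with both compounds, by 0.57 (adjusted p = 2.948e-07, limma) and 0.42 (adjusted p = 7.143e-05, limma) on the log2 scale, the latter lost with a model fitted to each gene alone (adjusted p = 0.0643). SLC39A1, a plasma membrane importer, had 33.84 and 31.58 CPM with DMSO, 26.01 and 20.98 CPM with CCF642 and 23.72 and 25.65 CPM with CCF642-34, log2 fold changes of -0.34 and -0.31 that passed the limma test. Its call with CCF642 was lost without CCF642 replicate 2 (adjusted p = 0.0868) and that with CCF642-34 without DMSO replicate 1 (0.0666) or CCF642-34 replicate 1 (0.0685), all with limma.

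In the SLC30 family 6 of 10 genes were listed, and 3 rose, 2 fell and 1 did not pass with CCF642 (median 0.22), while 4 rose, 0 fell and 2 did not pass with CCF642-34 (median 0.22). Beside these counts, 31.8% of all genes rose and 31.3% fell with CCF642, and 29.7% rose and 27.9% fell with CCF642-34. The 3 SLC30 members make up all increases with CCF642. SLC30A9, a mitochondrial zinc transporter, had a log2 fold change of -0.21 with CCF642 (adjusted p = 0.002729, limma), a call lost without DMSO replicate 1 (adjusted p = 0.0569, limma). SLC30A4, an endosomal transporter, had one of -0.46 with CCF642 (adjusted p = 0.0137, limma), lost without DMSO replicate 2 (adjusted p = 0.104, limma) or CCF642 replicate 2 (adjusted p = 0.0975, limma). SLC30A6, the partner of SLC30A5, rose by 0.16 with CCF642-34 (adjusted p = 0.0276, limma), but this call was lost in each fit that left out a DMSO or a CCF642-34 library (adjusted p 0.062 to 0.127, limma).

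**Figure D4:**
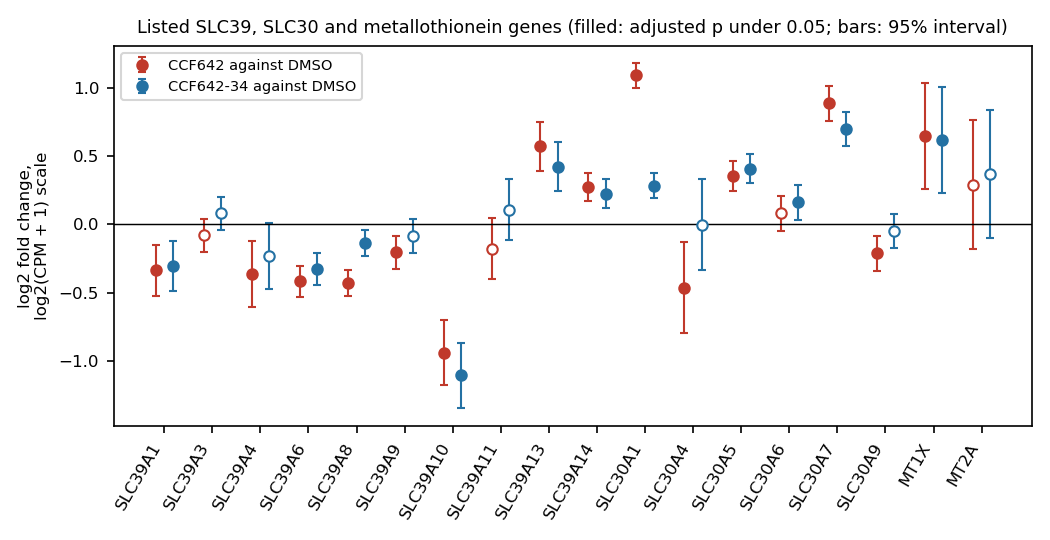
Log2 fold changes against DMSO (y axis, log2(CPM + 1) scale, bars 95% intervals) of every listed SLC39, SLC30 and metallothionein gene, with filled points at an adjusted p under 0.05. Importers lie on both sides of 0, from SLC39A10 at -0.94 and -1.11 to SLC39A13 at 0.57 and 0.42, and SLC30A1 is the highest point with CCF642.

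Lists of other metal and zinc genes were counted in the same way. The shares of all genes were again 31.8% higher and 31.3% lower with CCF642. With CCF642-34 they were 29.7% higher and 27.9% lower. Of 10 copper-handling genes, 1 rose and 5 fell with CCF642 (median -0.21) and 2 rose and 4 fell with CCF642-34 (median -0.11). The copper importer SLC31A1 rose by 0.35 and 0.30 on the log2 scale (adjusted p = 1.354e-05 and 0.0001567, limma). The copper exporter ATP7A fell by 0.47 and 0.56 (adjusted p = 1.486e-07 and 2.843e-09, limma). Of the other copper genes called lower, SCO1 had log2 fold changes of -0.49 and -0.28 (adjusted p = 2.482e-06 and 0.00415, limma). The other SLC31 gene, SLC31A2, had -0.41 with CCF642-34 (adjusted p = 0.0278, limma) and no call with CCF642. Both lost their calls with a model fitted to each gene alone. SLC31A2 also lost its call in each fit that left out a DMSO or a CCF642-34 library. SCO1 lost its call with CCF642-34 without DMSO replicate 1 (log2 fold change -0.25) and without CCF642-34 replicate 1 (-0.14). Of 7 other metal ion transporters and channels, 4 rose and 3 fell with CCF642 (median 0.21) and 2 rose and 2 fell with CCF642-34 (median -0.07). Among them the iron exporter SLC40A1 fell from 6.568 and 8.737 CPM with DMSO to 1.313 and 0.8409 CPM with CCF642 and 2.143 and 2.806 CPM with CCF642-34, log2 changes of -1.96 and -1.24 (adjusted p = 1.542e-12 and 2.939e-07, limma). CNNM3, of the magnesium-handling cyclin M proteins, fell by 0.57 and 0.72 and its relative CNNM4 rose by 0.52 and 0.48, all past the limma threshold.

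Of 6 listed zinc-dependent proteins of the secretory pathway, 1 rose and 2 fell with CCF642 (median -0.05) and 2 rose and 2 fell with CCF642-34 (median 0.05). The zinc metalloprotease ADAM17 rose from 44.54 and 41.77 CPM with DMSO to 122.5 and 131.3 CPM with CCF642 and 114.5 and 118.4 CPM with CCF642-34, by 1.67 and 1.5 on the log2 scale (adjusted p = 3.59e-29 and 4.359e-27, limma). Its relative ADAM10 fell by 0.68 and 0.48 (adjusted p = 1.047e-18 and 2.543e-13, limma). Of the 3 subunits of casein kinase 2, a different one passed the test with each compound, CSNK2A2 with CCF642 (log2 fold change 0.24) and CSNK2A1 with CCF642-34 (0.15), and both calls were lost with library size alone (adjusted p = 0.194 and 0.354, limma). The list's medians were 0.09 and 0.08. The CSNK2A2 call was also lost without CCF642 replicate 2 (adjusted p = 0.0507, limma), and that of CSNK2A1 without DMSO replicate 2 (0.151) or CCF642-34 replicate 2 (0.0696). Leaving the members out, the listed genes of the 7 lists numbered 36, of which 9 rose and 15 fell with CCF642 (31.8% and 31.3% of all genes did), 10 rose and 9 fell with CCF642-34 (29.7% and 27.9% of all genes), and in the direct comparison of the compounds 10 were higher and 4 lower with CCF642-34 (15.9% and 17.4% of all genes).

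Genes whose pattern over the 6 libraries was most like that of a member were named by the root mean square difference of log2 values centred on DMSO, among 8915 genes. For SLC30A1 they were CHORDC1 (0.0384), PFKFB3 (0.0571) and SGK1 (0.0624). CHORDC1 had means of 81.2, 156.1 and 93.5 CPM with DMSO, CCF642 and CCF642-34. For SLC39A10 they included DCBLD2 (0.0922) and HUNK (0.113), and DCBLD2 had 23.5, 9.63 and 9.56 CPM in the same order of groups. For MT2A they were TMEM238 (0.0806), EPS8 (0.0849) and SDF2L1 (0.0853), but MT2A rests on few reads. The log2(CPM + 1) scale used here also shrinks the changes of MT2A, so genes with smaller changes in CPM match it. Its mean CPM was 1.40 times that of DMSO with CCF642 and 1.61 times with CCF642-34. SDF2L1 had means of 48.7, 56.6 and 64.6 CPM with DMSO, CCF642 and CCF642-34. All these matches are descriptions over the same 6 libraries, without a test.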

How the data were processed

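Poly(A) RNA of MM1.S cells was sequenced by the authors, and the deposited values are CPM, the reads of a gene scaled to the library total. The submitters' processing notes name STAR, hg19, edgeR 3.24.3 and limma 3.38.3. The table of the whole series equals the single-library files in 6 of 6 columns, and 0 columns were left unassigned. All values were whole multiples of 1 read (tolerance 0.01 read), listed genes held 99.9% of the reads, and each gene reached 1.5 CPM in at least 1 library, so genes below that value in all 6 libraries were not analysed here.

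CPM was scaled with TMM factors (edgeR 4.0.16), increased by 1, log2-transformed and fitted with limma 3.58.1 (R 4.3.3, lmFit and eBayes with trend) over the 3 groups without a block. This left 3 residual degrees of freedom and a prior of 42.9, so limma took a gene's spread mostly from genes of like level. With each gene's own spread, the adjusted p with CCF642 was 0.00234 for SLC30A1 and 0.0403 for SLC39A10 (gene-wise linear model). Tests were two-sided, and p values were Benjamini-Hochberg adjusted over all 11048 genes. Alternatives were DESeq2 (1.42.0) size factors and Wald test, edgeR's quasi-likelihood test on recovered reads, library size alone, pseudocounts of 0.1 and 4, a mean CPM of at least 5, gene-wise models, models restricted to the groups being compared, a block on the replicate number and omission of each library. Code was tested on simulated data. Replicates of each group differed by more than sampling noise.

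Members, lists and rules were chosen with earlier results of these data known. The naming rule took all members, any listed SLC39, SLC30 or metallothionein gene, from each other list the 2 largest called increases and decreases with each compound, not all of which are named, and the 3 genes most alike, of which 1 is not reported here. Promoters came from RefSeq (GRCh38.p14) and lengths and overlaps from GENCODE release 29. No coordinate of hg19 was used.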

Additional observations from a re-analysis of the deposited data

How the results depend on the processing

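Of the calls made on the members, those of SLC30A1, SLC30A5, SLC39A6, SLC39A10, SLC39A14 and MTF1 against DMSO, that of SLC30A7 against DMSO, and that of SLC30A1 between the compounds kept their direction and passed the threshold in every alternative run. SLC39A8 with CCF642-34 was lost with the gene-wise model (adjusted p = 0.105), as was its difference between the compounds (0.0677), and the SLC30A7 difference was lost with library size alone (0.069) and gene-wise (0.089). Library size alone moved the median of all genes to -0.13 with CCF642, -0.08 with CCF642-34 and 0.05 between the compounds. Member counts of at least 2-fold changes were 0 with CCF642-34 at a pseudocount of 4, and without single libraries they ranged from 1 to 2 with CCF642 and from 0 to 1 with CCF642-34. Between the compounds, library size alone gave 1 lower member and 2 lower list genes (here the 7 lists together with MTF1), DESeq2's Wald test 11 list genes (6 higher), the gene-wise model 1 member (0 higher, 1 lower) and 2 list genes (1 higher, 1 lower), and the fit of only those groups 7 higher list genes, against 3 members and 17 list genes (11 higher, 6 lower) with the settings of the report. With CCF642-34 against DMSO the gene-wise model called 17 list genes, 7 lower, against 27 and 12. The cause of these shifts was not tested. Without single libraries, members lower between the compounds ranged from 1 to 2, list genes called from 7 to 17 (4 to 10 higher, 2 to 7 lower), and list genes lower with CCF642-34 against DMSO from 7 to 13. Leaving out single libraries, the difference between the compounds ranged from -0.12 to 0.28 for MT2A (below 0 without replicate 1 of either compound, -0.07 for CCF642) and from -0.37 to 0.039 for SLC39A10 (above 0 without CCF642-34 replicate 1), neither called. With the minimum CPM of 5, MT2A could not be fitted. Few reads limit the precision of MT2A and MT1X. Of the other genes named, the gene-wise model also lost SLC39A1 with both compounds, SLC30A4, SLC30A9 and CSNK2A2 with CCF642 and MT1X with CCF642-34. DESeq2's Wald test lost SLC30A4, SLC30A6 and SLC31A2, and library size alone lost SLC30A6.

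Deviations of same-numbered libraries correlated at -0.047 (DMSO and CCF642), -0.0769 (DMSO and CCF642-34) and 0.112 (CCF642 and CCF642-34) over 9390 genes. Each group gives only a single difference between its libraries, so these values cannot settle whether the replicate numbers pair the samples. With the replicate number as a block, 8, 8 and 3 members and 32, 27 and 18 list genes were called, against 8, 8 and 3 and 32, 27 and 17 without it.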
